A study of Mus musculus with 6 samples.

Results

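The 42 genes described here drive or mark the cell cycle, and they were taken by symbol from the 48709 genes of a count table of mouse peritoneal macrophage RNA. They fall into 12 regulators of the passage from G1 into S phase, 13 genes of DNA replication and 17 genes of mitosis, and each group is reported apart. The cells were F4/80+ CD11b+ macrophages, sorted by flow cytometry from the peritoneal lavage of C57BL/6 mice 6 to 8 weeks old that had received no treatment, and their mRNA was sequenced. The wild-type group had 3 libraries and the Zeb1 (+/-) group, heterozygous for the gene of the zinc-finger repressor ZEB1, had 3 libraries. Each library came from a pool of 2 mice, so the spread between libraries is one between pools and not between single animals. The labels do not describe the Zeb1 allele, and nothing in them limits the loss to macrophages.

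Cells leave G1 when D-type cyclins bound to CDK4 or CDK6, and then cyclin E bound to CDK2, phosphorylate the retinoblastoma protein and free E2F factors, which switch on the genes of DNA replication. Genes of mitosis are transcribed later, from promoters that carry CCAAT boxes and a cell cycle homology region (CHR) read by MYBL2, FOXM1 and the DREAM complex. Resident macrophages of the peritoneal cavity maintain themselves largely by a low rate of local division.

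Library totals ran from 17859872 to 42165006 counts. All 10 macrophage markers, among them Adgre1 (F4/80) and Itgam (CD11b), were detected, with means over the 6 libraries of 2402 and 4955 CPM (library-scaled counts, where 1 CPM stands for 17.9 to 42.2 counts). Zeb1 was at 5.44, 7.56 and 7.22 CPM in wild-type libraries and at 3.85, 3.45 and 3.62 CPM in Zeb1 (+/-) libraries, without overlap (log2 fold change −0.89, edgeR adjusted p = 0.0522). Wild-type replicates 1 and 2 stood apart from the other libraries in small structural RNA, with 4.14 and 8.69 CPM against 42.2 to 45.5 CPM. Summed over 15 genes, B cell markers were at 164 to 307 CPM in wild-type and 114 to 136 CPM in Zeb1 (+/-) libraries, and the highest sum was that of wild-type replicate 3. Monocyte markers (6 genes) summed to 318 to 343 CPM and 224 to 242 CPM, and T and NK cell markers (11 genes, 10 of them under 1 CPM in the mean) to 17.3 to 20.5 CPM and 11.4 to 12.9 CPM, both without overlap. The part of these cells in the genotype values below was not tested. In bulk RNA, fewer cells of a type and less RNA per cell cannot be told apart.

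The comparison asked whether cell cycle transcripts of resting peritoneal macrophages differ when 1 copy of Zeb1 is lost. None of the 42 genes passed, whether from the G1/S, the replication or the mitosis group. In the main edgeR fit the widest 95% confidence bounds, −0.93 and 0.96 on the log2 scale, stayed inside a 2-fold difference. These intervals are per gene, not adjusted for the number of genes, and hold for that fit only. Over 15 other settings the log2 fold change of Ccnb2 ran from −0.64 to 1.22. All 42 were measured well enough to be tested, among 12940 genes in all. By the quasi-likelihood test of edgeR with Benjamini-Hochberg adjustment, 0.587% of all tested genes differed at the threshold of 0.05, a rate at which fewer than 1 gene in 42 would be called. At an unadjusted p under 0.05 there were 7 of the 42, against 14.6% of all tested genes. Of these 5 were higher in Zeb1 (+/-) (Ccnd1, Cdk6, Mcm2, Mcm6 and Pcna) and 2 lower (Ccnd2 and Cdkn1a), against 6.3% and 8.26%. Groups did not overlap for 6 of the 42 genes, or 14.3%, against 19.9% of all tested genes, with 4 higher (background 9.6%) and 2 lower (background 10.3%). DESeq2 called 1 of the 42 (Ccnd2, adjusted p = 0.0442) and 2.71% of all tested genes, and limma-voom called 0 of the 42. An edgeR fit without the filter on low counts called 3 (Ccnd1, Ccnd2 and Cdk6) and 2.47% of all genes, and at an adjusted p under 0.1 edgeR called 1 (Ccnd2) and 1.65%. The median log2 fold change, Zeb1 (+/-) over wild-type here and below, was −0.04 for the G1/S genes, 0.20 for the replication genes and 0.03 for the mitosis genes, against −0.00038 for all tested genes.

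**Figure D1:**
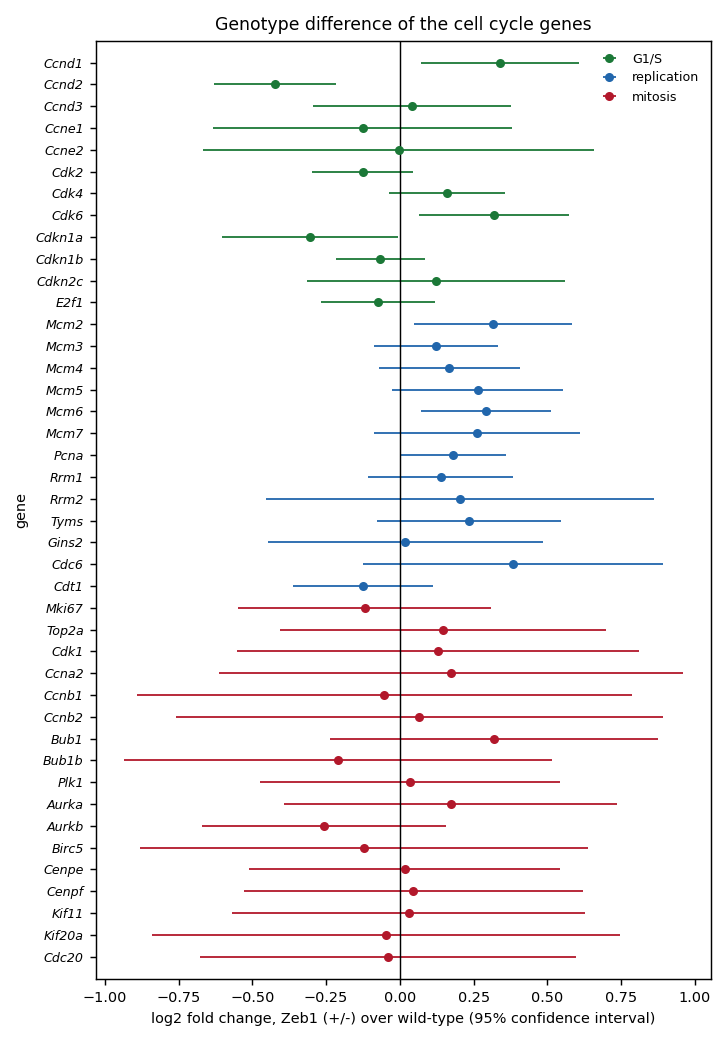
Log2 fold change of each of the 42 genes, Zeb1 (+/-) over wild-type, from edgeR (points) with its 95% confidence interval (bars), in the order G1/S, replication and mitosis. The replication genes lie mostly to the right of 0 and the mitosis genes on both sides of it with wider intervals. None passed the adjusted threshold.

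Among the G1/S genes, the D-type cyclins, which read growth signals and activate CDK4 and CDK6, differed in the sign of their values. Ccnd2 (ENSMUSG00000000184.12, chromosome 6, 127125162 to 127152193 on GRCm38) was at 15.7, 16.7 and 15.5 CPM in wild-type and 11.6, 11.03 and 13.1 CPM in Zeb1 (+/-) libraries, in the order of replicates 1, 2 and 3 kept from here on. Every Zeb1 (+/-) library lay below every wild-type library. Wild-type averaged 16.0 ± 0.603 CPM and Zeb1 (+/-) 11.9 ± 1.06 CPM (SD, n = 3 per genotype), a log2 fold change of −0.42 ± 0.09 (SE; 95% confidence interval −0.63 to −0.22). Its edgeR adjusted p was 0.0889, the smallest of the 42 genes, and over 15 other settings the log2 fold change ran from −0.52 to −0.36 and the adjusted p from 0.0312 to 0.506. It passed with DESeq2 and without the filter on low counts.

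Ccnd1 (chromosome 7, 144929931 to 144939925) was at 151, 121 and 118 CPM in wild-type libraries, and Zeb1 (+/-) libraries had 145, 159.9 and 188 CPM. The groups overlapped through wild-type replicate 1, which was above Zeb1 (+/-) replicate 1. Its log2 fold change was 0.34 ± 0.12 (SE; edgeR adjusted p = 0.248), opposite in sign to that of Ccnd2. Ccnd3 was at 199.7, 183 and 138 CPM and at 147, 184 and 204 CPM, so the spread within each genotype was larger than the distance between them (log2 fold change 0.04, 95% confidence interval −0.30 to 0.38). Per kilobase of annotated exon the 3 cyclins were far apart, with mean levels of 31.2 CPM for Ccnd1, 20.1 CPM for Ccnd3 and 1.48 CPM for Ccnd2. Ccnd2 was the scarcest D-type cyclin, and the ranges over libraries of Ccnd1 (25.1 to 39.9 CPM per kilobase) and Ccnd3 (15.7 to 23.2) did not overlap.

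Neither of their kinase partners passed the test. Cdk6 was at 26.4, 30.9 and 32.3 CPM in wild-type and at 43.3, 35.1 and 33.4 CPM in Zeb1 (+/-), without overlap, the nearest libraries being wild-type replicate 3 and Zeb1 (+/-) replicate 3. Its log2 fold change was 0.32 (95% confidence interval 0.06 to 0.57; edgeR adjusted p = 0.252), and without the filter on low counts its adjusted p was 0.0444. Cdk4 was at 89.1, 78.2 and 75.6 CPM and at 82.3, 91.7 and 97.4 CPM, with overlapping groups (log2 fold change 0.16, edgeR adjusted p = 0.430). Cdk2, the partner of cyclins E and A, was at 21.3 to 24.3 CPM in wild-type and 20.2 to 21.6 CPM in Zeb1 (+/-). Cyclin E transcripts were scarce, with Ccne1 at 0.992 to 1.27 CPM and Ccne2 at 1.12 to 2.08 CPM, and fewest counts of 21 and 20 in a library. The E2F gene of the group, E2f1, was at 17.9 ± 1.03 and 16.9 ± 1.27 CPM, and its log2 fold change of −0.08 had a 95% confidence interval of −0.27 to 0.12.

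The CDK inhibitors act as brakes on these kinases. Cdkn1a, which encodes p21 and is induced by p53, was at 75.7, 74.6 and 70.6 CPM in wild-type and at 45.2, 65.1 and 67.9 CPM in Zeb1 (+/-) libraries. The groups did not overlap, but Zeb1 (+/-) replicate 1 alone was far below the others. The log2 fold change was −0.30 (95% confidence interval −0.60 to −0.01; edgeR adjusted p = 0.338), and −0.14 without that library. Cdkn1b, which encodes p27, varied least of the 42 genes, at 43.4, 47.9 and 44.8 CPM against 43.7, 44.5 and 41.7 CPM, with a within-genotype SD of 0.06 on the log2 scale. Cdkn2c, which encodes the CDK4 and CDK6 inhibitor p18, was at 9.40, 11.5 and 16.1 CPM and at 12.5, 15.8 and 11.3 CPM, highest in wild-type replicate 3 and Zeb1 (+/-) replicate 2.

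Of the 13 replication genes 12 had a log2 fold change above 0 and 1 (Cdt1) below it, while 49.9% of all tested genes lay above 0. None passed, and 3 (Mcm2, Mcm6 and Pcna) had an unadjusted p under 0.05. The 6 subunits of the MCM helicase, which unwinds DNA ahead of the fork, all lay above 0, between 0.12 and 0.31. Mcm6 (ENSMUSG00000026355.11, chromosome 1, 128331590 to 128359664) was at 37.4, 33.2 and 40.3 CPM in wild-type and at 42.9, 50.5 and 42.0 CPM in Zeb1 (+/-) libraries. The nearest libraries of the 2 genotypes, wild-type replicate 3 and Zeb1 (+/-) replicate 3, were close but did not cross. Its log2 fold change was 0.29 ± 0.10 (SE; 95% confidence interval 0.07 to 0.51; edgeR adjusted p = 0.226), and from 0.17 to 0.49 over 15 other settings.

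Mcm2 was at 16.8, 12.6 and 16.6 CPM and at 18.8, 20.4 and 17.7 CPM, without overlap, and wild-type replicate 2 was the lowest library (log2 fold change 0.31, edgeR adjusted p = 0.279). Mcm5 was at 19.7, 16.2 and 19.4 CPM and at 20.7, 26.2 and 19.1 CPM (0.26). Mcm7 was at 17.8, 17.3 and 23.5 CPM and at 21.6, 28.1 and 19.7 CPM (0.26). In both, Zeb1 (+/-) replicate 2 was the highest library and the groups overlapped. Mcm3 was at 30.8, 32.2 and 35.0 CPM and at 35.3, 39.5 and 31.6 CPM, and Mcm4 at 24.6, 23.6 and 27.9 CPM and at 29.9, 31.0 and 24.4 CPM. These overlapped as well, with log2 fold changes of 0.12 and 0.17. Summed over the 6 subunits, the level was 147, 135 and 163 CPM in wild-type and 169, 196 and 154.5 CPM in Zeb1 (+/-) libraries, so the sums overlapped through wild-type replicate 3 and Zeb1 (+/-) replicate 3.

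Pcna, the sliding clamp of the DNA polymerases, was at 81.4, 70.4 and 78.2 CPM in wild-type and at 84.2, 94.0 and 82.1 CPM in Zeb1 (+/-) libraries. The lowest Zeb1 (+/-) library was just above the highest wild-type library (82.1 against 81.4 CPM), and the log2 fold change was 0.18 (edgeR adjusted p = 0.343). None of the genes of nucleotide supply passed. Rrm1 and Rrm2, the subunits of ribonucleotide reductase, had log2 fold changes of 0.14 and 0.20, and Tyms, thymidylate synthase, had 0.23, with adjusted p of 0.590, 0.788 and 0.472 by edgeR. Rrm2, the subunit made in S phase, was at 4.63, 4.26 and 7.81 CPM and at 5.97, 8.55 and 4.23 CPM, again highest in wild-type replicate 3 and Zeb1 (+/-) replicate 2. Of the licensing factors that load the helicase, Cdc6 was at 3.63, 2.34 and 3.77 CPM against 3.57, 5.197 and 3.75 CPM (log2 fold change 0.38, 95% confidence interval −0.12 to 0.89) and Cdt1 at 10.8 ± 0.644 and 9.90 ± 0.928 CPM (−0.12). Gins2, a subunit of the GINS complex of the moving helicase, was at 3.01 ± 0.342 and 2.97 ± 0.739 CPM.

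The median of the replication genes, 0.20, depended on single libraries and on added terms. It was 0.09 without Zeb1 (+/-) replicate 2 and 0.30 without Zeb1 (+/-) replicate 3. Adding the structural-RNA split to the model, so that the genotype is read from wild-type replicate 3 against the Zeb1 (+/-) libraries, gave 0.03, and adding the mean of the B cell markers gave 0.42. Its distance from 0 was smaller than that of the mitosis median in both of these fits (−0.52 and 0.79 for mitosis) and in those without wild-type replicate 3 or 2 or without Zeb1 (+/-) replicate 2. With the split 0 of the 42 members passed and 4 had an unadjusted p under 0.05 (all tested genes 0.24% and 8.32%), and with the B cell mean 0 passed and 17 had an unadjusted p under 0.05 (0.0232% and 12.8%). The split and the genotype share wild-type replicates 1 and 2, and their parts in the difference cannot be told apart with 1 wild-type library on the high side. B cell marker sums did not overlap between the genotypes and were highest in wild-type replicate 3. The parts of that covariate and of the genotype therefore cannot be told apart either.

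The 17 mitosis genes showed no common difference between genotypes, but they varied together between libraries of the same genotype. Mki67 (ENSMUSG00000031004.8, chromosome 7, 135689784 to 135716361), which encodes the proliferation marker Ki-67 that coats mitotic chromosomes, was at 28.2, 31.1 and 46.0 CPM in wild-type and at 26.7, 39.1 and 29.8 CPM in Zeb1 (+/-) libraries. Wild-type replicate 3 was highest and Zeb1 (+/-) replicate 2 next. Wild-type averaged 35.1 ± 9.55 CPM and Zeb1 (+/-) 31.9 ± 6.43 CPM (SD, n = 3 per genotype), and the log2 fold change was −0.12 ± 0.19 (SE; 95% confidence interval −0.55 to 0.31; edgeR adjusted p = 0.808). Top2a, the topoisomerase that untangles sister chromatids, was at 21.1, 19.5 and 36.1 CPM and at 23.4, 36.4 and 23.3 CPM. The same 2 libraries stood above the other 4, and the log2 fold change was 0.15 (95% confidence interval −0.41 to 0.70).

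The kinase and cyclins that start mitosis had the same order of libraries. Cdk1 was at 4.21, 3.44 and 7.06 CPM in wild-type and at 3.69, 7.18 and 4.63 CPM in Zeb1 (+/-) libraries. Its cyclin Ccnb1 was at 2.34, 2.73 and 5.26 CPM and at 2.68, 4.77 and 2.07 CPM. Ccnb2, the second B-type cyclin, was at 3.12, 2.91 and 6.85 CPM and at 3.13, 6.28 and 3.44 CPM, and Ccna2, the cyclin of S and G2 phase, at 5.11, 5.54 and 11.8 CPM and at 7.03, 11.7 and 5.76 CPM. In each of these 4 genes wild-type replicate 3 and Zeb1 (+/-) replicate 2 were the 2 highest libraries.

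The spindle checkpoint, which holds anaphase until chromosomes are attached, is represented by Bub1 and Bub1b. Bub1 was at 2.10, 2.10 and 2.97 CPM and at 2.07, 3.73 and 2.83 CPM, and Bub1b at 4.51, 6.00 and 9.67 CPM and at 4.30, 8.22 and 4.29 CPM. Of the mitotic kinases, Aurkb, the kinase of the chromosomal passenger complex, was at 6.97, 7.28 and 11.2 CPM against 6.48, 7.72 and 6.70 CPM and had the smallest unadjusted p of the group (0.195; log2 fold change −0.26). Without wild-type replicate 3 its log2 fold change was −0.02. Aurka, the kinase of centrosomes and spindle poles, was at 1.92, 1.88 and 2.87 CPM against 1.95, 3.12 and 2.19 CPM. Plk1, which acts there too, averaged 2.73 and 2.75 CPM. Birc5, the survivin subunit of the same passenger complex, had a log2 fold change of −0.12. The kinetochore motor Cenpe and its partner Cenpf had 0.02 and 0.05, the spindle kinesin Kif11 had 0.03, the kinesin of cytokinesis Kif20a had −0.05, and Cdc20, which activates the anaphase-promoting complex, had −0.04.

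Wild-type replicate 3 and Zeb1 (+/-) replicate 2 were the 2 highest of the 6 libraries for 17 of 17 mitosis genes, 5 of 13 replication genes and 2 of 12 G1/S genes. That order was looked for after the values had been seen, and 5.38% of all tested genes have it. Each was the highest of its own genotype for 17, 9 and 3 genes, against 10.8% of all tested genes. Wild-type replicate 3 was 1.42 to 2.27 times the mean of the other wild-type libraries over the 17 genes, with a median of 1.84. Zeb1 (+/-) replicate 2 was 1.17 to 2.01 times the mean of the other Zeb1 (+/-) libraries, with a median of 1.56. For the 13 replication genes these medians were 1.14 and 1.21, and for the G1/S genes 1.04 and 1.03. Over all tested genes they were 0.997 and 0.997.

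**Figure D2:**
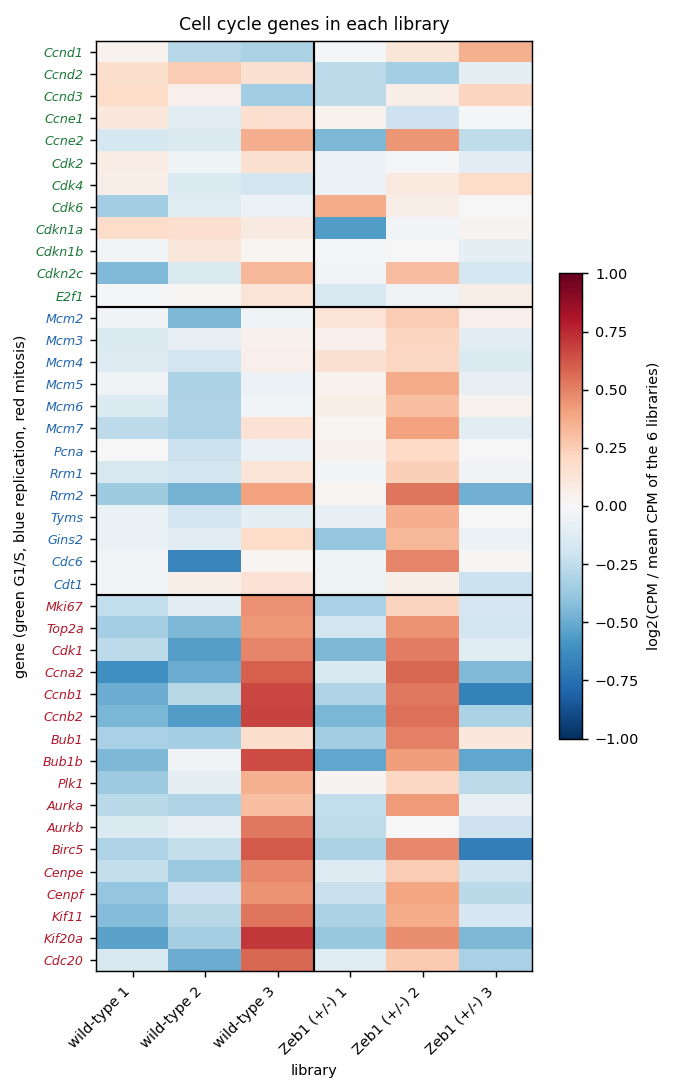
Level of each of the 42 genes in each library, as the log2 ratio of its CPM to its mean over the 6 libraries (colour), with G1/S genes at the top, replication genes in the middle and mitosis genes at the bottom. In the mitosis block the columns of wild-type replicate 3 and Zeb1 (+/-) replicate 2 are the 2 highest in every row.

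Summed over the 17 genes, the mitosis level was 104, 109 and 186 CPM in wild-type and 109, 169 and 111 CPM in Zeb1 (+/-) libraries. This gave 133 ± 45.9 CPM for wild-type and 129 ± 34.3 CPM for Zeb1 (+/-) (SD, n = 3 per genotype). A single library in each genotype carried the sum upward, and the other 4 lay between 104 and 111 CPM. The replication sum was 284, 259 and 308 CPM and 312, 363 and 293 CPM. Replication over mitosis, the ratio of these sums, was lowest in the same pair of libraries, at 1.66 and 2.15 against 2.39 to 2.88 in the other 4. The G1/S sum had another order, with 653, 604 and 558 CPM in wild-type and 569, 649 and 697 CPM in Zeb1 (+/-) libraries, so wild-type replicate 3 was the lowest library there. That sum follows its most abundant genes, Ccnd3, Ccnd1 and Cdk4, which were each lowest in wild-type replicate 3. Of the 12 genes 6 were higher in that library than the mean of the other wild-type libraries.

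**Figure D3:**
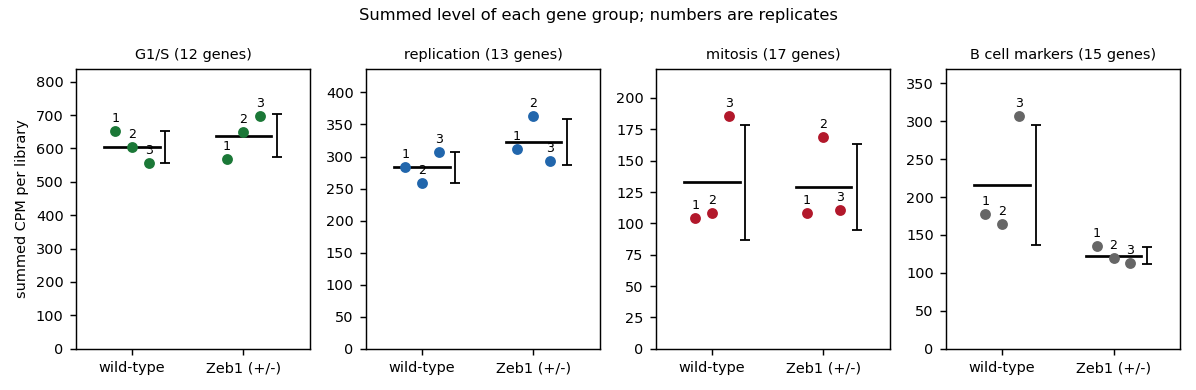
Summed CPM of the G1/S, replication and mitosis genes and of the B cell markers in each library (points, numbered by replicate), with the mean (line) and SD (bar beside the points) of each genotype, n = 3. In the mitosis panel wild-type replicate 3 and Zeb1 (+/-) replicate 2, at 186 and 169 CPM, lie above the other 4 libraries, while the B cell markers were highest in the former (307 CPM).

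Other measures of these 2 libraries were read beside the mitosis genes. Their totals were 18574049 and 42165006 counts, the second of them the deepest library. The B cell sum was 307 CPM in wild-type replicate 3 but 119 CPM in Zeb1 (+/-) replicate 2, between those of the other Zeb1 (+/-) libraries (114 and 136 CPM). Structural RNA was at 42.2 and 45.5 CPM in them and at 43.6 and 44.3 CPM in Zeb1 (+/-) replicates 1 and 3. The summed markers of eosinophils and mast cells were highest in these 2 libraries too, at 4.46 and 4.11 CPM against 2.25 to 2.98 CPM, with each of the 10 genes under 1 CPM in the mean and Epx and Prg2 at 0 in all libraries. The sum of the 9 neutrophil markers was also highest there, at 1.91 and 2.88 CPM against 1.31 to 1.89 CPM, with 8 of 9 under 1 CPM and Mpo at 0. The part of these cells in the mitosis level was not tested.

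The genotype comparison was least precise for the mitosis genes. Within genotypes the SD of log2(CPM + 0.1) had a median of 0.43 over the mitosis genes, 0.17 over the replication genes, 0.15 over the G1/S genes and 0.13 over all tested genes. Mitosis genes also had the highest median SD of the 3 groups, and one above all tested genes, in each range of level that held any of them, while G1/S and replication genes had no fixed order. The 9 mitosis genes between 1 and 5 CPM had a median SD of 0.43 against 0.25 for all 1982 tested genes of that range, and the 6 between 5 and 15 CPM had 0.47 against 0.14. The 2 between 15 and 50 CPM had 0.38 against 0.0975. Half-widths of the 95% confidence intervals had medians of 0.60 for mitosis, 0.27 for replication and 0.26 for G1/S genes on the log2 scale. The lowest count of any mitosis gene in a library was 35 (Aurka), which has a Poisson error of 16.9%. Without wild-type replicate 3 the median log2 fold change of the mitosis genes was 0.36, and without Zeb1 (+/-) replicate 2 it was −0.22. It was also below 0 without wild-type replicate 1 (−0.12) or 2 (−0.14), and above 0 without Zeb1 (+/-) replicate 1 (0.08) or 3 (0.16), so its sign changed with which library was left out.

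**Figure D4:**
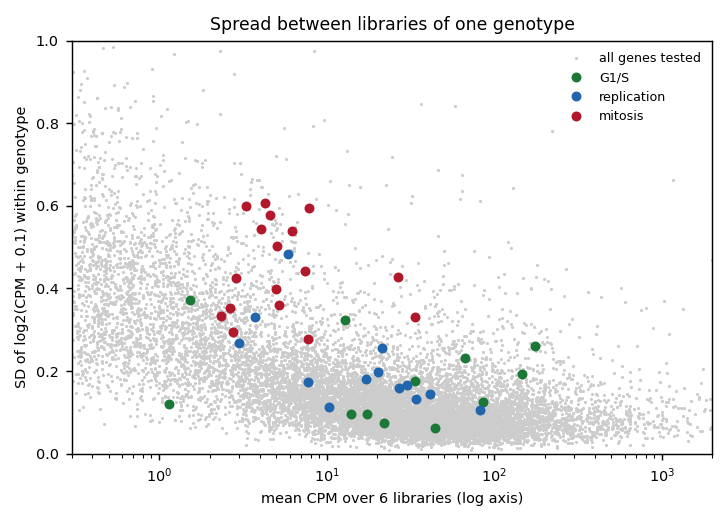
SD of log2(CPM + 0.1) between libraries of one genotype (pooled over both) against the mean CPM (log axis) for all tested genes (grey) and for the G1/S, replication and mitosis genes. The mitosis genes have a median SD of 0.43, above the median of tested genes of like level, and 147 tested genes fall outside the axes.

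The mitosis and replication genes also differ in the letters of their promoters, shown here by phase. Of the CCAAT box and the CHR named above, the CHR separated these groups, while CCAAT was frequent in both. Promoters from 250 bases before to 50 bases after the start site were in the RefSeq table (GRCm38.p6) for 34 of the 42 genes, 38 promoters in all. Those of Ccnd1, Ccnd2, Ccne2, Mcm4, Gins2, Ccna2, Aurkb and Kif20a were not used here. Motifs were searched on both strands. The core of the CHR was taken as TTTGAA. The box read by the factor NF-Y is CCAAT. E2F-like sites were taken as TTCCCGC and, as the other form, TTGGCGC. The E-box that ZEB1 binds was taken as CACCTG. The promoters of 3 mitosis and 2 replication genes follow, 5′ to 3′ on the gene's strand, with every match of these motifs in capitals.
Mki67, chr7:135716330-135716629, minus strand: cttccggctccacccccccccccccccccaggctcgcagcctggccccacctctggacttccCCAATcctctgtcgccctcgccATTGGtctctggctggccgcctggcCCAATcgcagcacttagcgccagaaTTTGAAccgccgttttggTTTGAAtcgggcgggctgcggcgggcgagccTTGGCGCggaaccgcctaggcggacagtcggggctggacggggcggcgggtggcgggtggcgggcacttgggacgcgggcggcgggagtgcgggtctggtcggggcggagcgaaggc
Cdk1, chr10:69352863-69353162, minus strand: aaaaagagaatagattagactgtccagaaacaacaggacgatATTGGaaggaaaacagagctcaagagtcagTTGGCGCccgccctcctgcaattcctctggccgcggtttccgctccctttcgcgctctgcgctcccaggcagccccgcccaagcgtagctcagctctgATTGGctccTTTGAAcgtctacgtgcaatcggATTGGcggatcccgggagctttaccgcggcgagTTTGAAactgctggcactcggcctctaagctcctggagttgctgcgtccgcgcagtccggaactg
Ccnb2, chr9:70421505-70421804, minus strand: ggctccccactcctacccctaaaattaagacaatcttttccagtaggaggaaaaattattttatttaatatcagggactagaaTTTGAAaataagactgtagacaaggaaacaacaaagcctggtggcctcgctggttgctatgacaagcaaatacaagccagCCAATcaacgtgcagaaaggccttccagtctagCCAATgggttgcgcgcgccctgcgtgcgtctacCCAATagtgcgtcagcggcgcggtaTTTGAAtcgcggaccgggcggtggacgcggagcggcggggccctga
Mcm6, chr1:128359656-128359955, minus strand: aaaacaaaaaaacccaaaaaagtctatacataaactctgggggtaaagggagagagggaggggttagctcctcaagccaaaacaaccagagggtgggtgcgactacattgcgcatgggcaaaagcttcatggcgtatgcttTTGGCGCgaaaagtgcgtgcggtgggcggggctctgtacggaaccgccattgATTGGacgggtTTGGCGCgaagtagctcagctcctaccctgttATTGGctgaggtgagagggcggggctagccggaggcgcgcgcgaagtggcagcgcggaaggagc
Mcm3, chr1:20820263-20820562, minus strand: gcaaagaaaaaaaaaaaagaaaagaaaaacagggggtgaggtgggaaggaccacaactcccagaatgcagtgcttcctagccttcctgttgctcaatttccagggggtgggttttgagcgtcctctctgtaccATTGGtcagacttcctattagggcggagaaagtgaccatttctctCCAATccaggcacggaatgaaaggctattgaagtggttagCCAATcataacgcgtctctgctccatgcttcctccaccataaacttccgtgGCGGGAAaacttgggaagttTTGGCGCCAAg

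The Mki67 promoter held 2 copies of TTTGAA, 3 CCAAT boxes on either strand and 1 TTGGCGC, and that of Ccnb2 held 2 copies of TTTGAA and 3 of CCAAT. In Cdk1 the downstream TTTGAA began 15 bases before the start site. TTTGAA was in 10 of 14 mitosis promoters (71.4%), 1 of 12 replication promoters and 0 of 12 G1/S promoters, and in 12.3% of the promoters of tested genes. CCAAT was in 13 of 14, 9 of 12 and 4 of 12, against 38.0%. The E2F-like motifs were in 3 of 14 mitosis, 8 of 12 replication and 2 of 12 G1/S promoters, against 11.9%. In Mcm3 an E2F-like match overlaps another on the opposite strand, and in Ccnb1 and the upstream Mcm7 promoter an E2F-like match overlaps a CCAAT box. The E-box CACCTG was in 0 of 14 mitosis promoters, 1 of 12 replication promoters (Tyms) and 1 of 12 G1/S promoters (Cdkn1a), against 16.96%. These matches describe letters and not binding, and no match says only that the letters are not in this window. All windows of E2f1, Cdk6, Cdc6, Cdkn2c and Mcm7, and the downstream windows of Ccnd3 and Cdkn1a, lay inside the annotated gene. The shares of G1/S and replication promoters therefore partly count sequence downstream of the annotated gene start.

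Compared per kilobase of annotated exon, Pcna was the highest of the 42 genes, with a mean of 34.0 CPM per kilobase over the 6 libraries, followed by Ccnd1 with 31.2, Cdk4 with 26.4, Ccnd3 with 20.1 and Cdkn1a with 18.7. The ranges of Pcna (29.3 to 39.1) and Ccnd1 (25.1 to 39.9) overlapped, as did those of Ccnd1 and Cdk4. The most abundant mitosis genes on this scale were Mki67 with 3.33, Top2a with 2.96 and Ccnb2 with 2.80 CPM per kilobase, and their ranges overlapped. Cenpf was lowest of the group and of the 42 genes, with 0.321. The MCM subunits lay between 2.47 (Mcm2) and 9.09 (Mcm3).

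Further cell cycle genes were read from lists of each pathway, beside a background over all tested genes of 14.6% at an unadjusted p under 0.05 and 49.9% above 0. Of 19 retinoblastoma, E2F and DREAM factors 0 passed by edgeR, with 1 at an unadjusted p under 0.05, the DREAM subunit Lin54 (log2 fold change −0.18, edgeR adjusted p = 0.342). Lin52 had the next smallest p, with a log2 fold change of 0.18 (edgeR adjusted p = 0.510). Of 45 further genes of licensing and the replication fork 0 passed, 3 had an unadjusted p under 0.05, and 39 lay above 0 with a median of 0.13. The origin recognition subunit Orc3 was at 32.4 ± 2.65 and 37.5 ± 0.867 CPM and the clamp loader subunit Rfc1 at 54.2 ± 2.39 and 60.6 ± 2.45 CPM (edgeR adjusted p = 0.251 and 0.308). Of 51 further genes of the spindle, kinetochore and cytokinesis 0 passed and 3 had an unadjusted p under 0.05, among them the kinetochore gene Spc25 (log2 fold change 0.50) and the condensin gene Smc4 (0.16). Here too 39 lay above 0 and 12 below it, with a median of 0.11. For 38 of these 51 genes (74.5%) wild-type replicate 3 and Zeb1 (+/-) replicate 2 were again the 2 highest libraries, and the median within-genotype SD of the 51 was 0.39. The 13 without this order ran from Cenpm at 0.580 CPM to Espl1 at 80.6 CPM in the mean, and included low genes such as Spc25 (2.16 CPM) and Cdca8 (4.44 CPM) as well as Bub3 and Incenp (63.7 and 46.2 CPM).

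Of 21 tested partners, inhibitors and activators of CDKs 1 rose, beside 0.155% of all tested genes. This was Cables1, which encodes a protein that links CDKs to other kinases, from 7.70 ± 0.989 to 25.3 ± 0.764 CPM (edgeR adjusted p = 0.000447). It lies on chromosome 18, as do Zeb1 and Gata6. The phosphatase gene Cdc25b had a log2 fold change of −0.51 (edgeR adjusted p = 0.0646). Of 24 p53 targets and antiproliferative genes 0 passed and 3 had an unadjusted p under 0.05, among them Gadd45b (−0.82) and Bbc3 (−0.44), and 18 lay below 0 with a median of −0.12. Of 17 tested genes linked to macrophage self-renewal and growth factors 0 passed by edgeR. An unadjusted p under 0.05 was found for 6, 3 in each direction, beside 14.6% of all tested genes. As this list was chosen with earlier results of these data known, its share is no test of the list. DESeq2 called Maf, Gata6, Rarb and Nfkbiz of this list, and 2.71% of all tested genes. Gata6, the transcription factor gene of these macrophages, was at 103 ± 8.84 and 127 ± 3.31 CPM, and Nfkbiz at 66.2 ± 1.26 and 51.3 ± 6.38 CPM (edgeR adjusted p = 0.115 and 0.125). Maf, whose product restrains macrophage division, was at 140, 141 and 146 CPM and at 88.1, 91.5 and 133 CPM (log2 fold change −0.45, edgeR adjusted p = 0.198). Of 20 replication-dependent histone genes, whose mRNAs lack a poly(A) tail, 5 were tested and 0 passed, and Hist1h1c was the most abundant with 18.5 ± 2.72 and 17.1 ± 0.248 CPM. Only Hist2h2aa1 had an unadjusted p under 0.05 (log2 fold change −2.3, edgeR adjusted p = 0.330), with 0 to 17 counts in a library.

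Some counts may be shared with other genes. Exons of Gins2 overlap those of Gse1 on the opposite strand over 67.3% of their length, those of Kif20a overlap Cdc23 over 29.3%, Ccnd1 overlaps Oraov1 over 23.4% and Cdk4 overlaps Tspan31 over 19.7%. Ccne2 overlaps Ints8 over 17.4% and Ccna2 overlaps Exosc9 over 12.5%, also on the opposite strand. Gse1, Cdc23, Ints8 and Exosc9 had more counts than the member they overlap (Gse1 14733 against 531, Ints8 5025 against 271). Oraov1 and Tspan31 had fewer (2504 against 26175 and 13135 against 15144). The kit marks strand, but whether the counting used it was not given in the sources used here, and without strand such reads cannot be told apart. Of the 50-base stretches of Ccnb1, Pcna, Mcm7 and Cdc20, 23.4%, 19.1%, 18.1% and 10.4% also occur in transcripts of other genes, mostly pseudogenes such as Ccnb1-ps and Pcna-ps2, so their levels are less certain than those of the other members.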

How the data were processed

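Estimated counts per gene and library were deposited by the authors, who used STAR, RSEM and edgeR on GRCm38 per the submitters' processing notes. Tool roles and versions, annotation release and strand setting are not given in the sources used here. All deposited expected counts were whole numbers. RNA was extracted with RNAzol and libraries made with a stranded TruSeq mRNA kit, per the labels. Columns were mapped by the identifier in each sample's description, with 0 left unmapped.

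Counts were fitted in R 4.3.3 with edgeR 4.0.16 (filterByExpr with a minimum count of 10, TMM factors between 0.976 and 1.01, quasi-likelihood test of genotype, Benjamini-Hochberg adjustment over all 12940 tested genes, threshold 0.05). SE is the log2 fold change over the root of the F statistic. CPM uses TMM-scaled totals, and 1 CPM stands for 17.9 to 42.2 counts. P-values test the genotype difference against the spread between pooled libraries. Exon lengths are the union of exons in GENCODE M21, and 3 listed genes were found through their identifiers under older symbols. The model was tested on simulated counts.

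The members and lists were chosen with earlier results of these data known. Values per library are given by rule for the 5 smallest p and 3 highest CPM per kilobase of each phase, the D-type cyclins, CDK inhibitors, MCM subunits, Mki67 and Top2a. Of each further list the members past the threshold are named, or failing any the 2 with the smallest p. Other genes (Cdc25b, Maf, Rarb, Bub3, Incenp, Espl1, Cenpm and Cdca8, and the remaining members) were named after their values were seen. Alternatives were RLE factors, no filter, at least 1 CPM in 3 libraries, the replicate block, DESeq2 1.42.0, limma-voom (limma 3.58.1), robust moderation, an adjusted p under 0.1, each library left out, the structural-RNA split (at 20 CPM) as a term and the mean of 13 B cell markers as a covariate. A sign change was counted as a reversal where the unadjusted p was under 0.05 in either fit.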

Additional observations from a re-analysis of the deposited data

How the results depend on the processing

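Of all tested genes 76 passed. The count was 351 with DESeq2, 522 without the filter on low counts, 214 at an adjusted p under 0.1, 31 with the structural-RNA split, 3 with the B cell covariate and 5 to 127 with 1 library left out (the lowest without wild-type replicate 2, the highest with Zeb1 (+/-) replicate 3 left out). Of the 42 members 0 passed, and 1 with DESeq2 and 1 at an adjusted p under 0.1 (Ccnd2 in both) and 3 without the filter (Ccnd1, Ccnd2 and Cdk6), with 0 in each fit that left out a library. Of the 182 tested genes of the further lists 1 passed (Cables1), beside 0.587% of all tested genes. DESeq2 called 6 (Cdc25b, Cables1, Maf, Gata6, Rarb and Nfkbiz), beside 2.71% of all tested genes. At an adjusted p under 0.1 there were 2, beside 1.65%. Without the filter 7 of 198 passed, beside 2.47%, and with a library left out 1 to 2 passed. The median log2 fold change of the G1/S genes was −0.19 with the structural-RNA split, that of the mitosis genes −0.52 with the split and 0.79 with the B cell covariate, and that of the replication genes 0.42 with the covariate. Ccnd3 reversed with the covariate (−0.45). With the covariate 17 of the 42 members had an unadjusted p under 0.05 and 0 passed, against 12.8% and 0.0232% of all tested genes. The cause was not tested. B cell marker sums did not overlap between the genotypes, so the parts of the covariate and of the genotype cannot be told apart.

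With the replicate block 15 genes passed, 0 of them members. The labels do not say that the numbers pair the libraries, and the deviations of same-numbered libraries had correlations of −0.25, −0.03 and −0.17, so no library was closest to the other of its own number. At this depth the rarest members had 20 and 21 counts in a library (Ccne2 and Ccne1), and the median interval half-width of the mitosis genes was 0.60 on the log2 scale.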
